A study of Mus musculus with 8 samples.

Results

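The genes described are 8 cytochromes P450 of mouse liver: the Cyp2d copies Cyp2d9, Cyp2d10, Cyp2d22, Cyp2d26, Cyp2d34 and Cyp2d40, the single strongly expressed Cyp2j gene Cyp2j5, and Cyp2u1. They were taken by gene symbol with earlier results of these data known, 8 of the 16792 named genes listed. All 8 passed the filter on low counts that left 13240 genes to test. Whole liver of 8 mice was profiled by RNA sequencing. Of these, 4 were mice with a liver-specific knockout of E4bp4 (E4bp4-LKO, mice 143, 144, 145 and 179) and 4 were wild type (WT, mice 164, 165, 166 and 167). Every mouse of both groups was fed a diet that induces non-alcoholic steatohepatitis (NASH) for 20 weeks from 2 months of age, so there was no group on another diet in this comparison. The sources used here do not give the promoter behind the deletion, or the strain and sex of the animals.

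Cytochromes P450 of the CYP2 family are haem enzymes of the endoplasmic reticulum that insert 1 oxygen atom into their substrates and take electrons from the reductase encoded by Por. The Cyp2d subfamily handles drugs and steroids. Humans have the single functional gene CYP2D6, whereas the mouse carries a cluster of closely related copies, among which Cyp2d9 is a testosterone hydroxylase and a classical male-predominant gene of mouse liver. Cyp2j enzymes make epoxides of arachidonic acid, which soluble epoxide hydrolase (Ephx2) breaks down, and Cyp2u1 hydroxylates long-chain fatty acids near their tail end.

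The level of Cyp2u1, Cyp2d34 and Cyp2d9 was higher in E4bp4-LKO livers and passed the test over all genes, and the other 5 members had positive estimates that did not pass. In edgeR's quasi-likelihood test with Benjamini-Hochberg adjustment over all 13240 genes and a threshold of 0.05, 3 of 8 members were called higher and 0 lower. Among all genes tested 10.9% were called in either direction, 4.38% higher and 6.49% lower. The unadjusted p was under 0.05, with a higher level in E4bp4-LKO, for 8 of 8 members against 13.1% of all genes. Of the 4 other Cyp2d and Cyp2j genes tested, 0 had such a p. Because the members were chosen with earlier results of these data known, setting their counts beside all genes does not test them as a set. All 8 estimates were above 0, as were 51.7% of those of all genes, and the median estimate was 0.48 over the members and 0.01 over all genes tested. DESeq2 called 7 of 8 members higher, all but Cyp2d22, against 6.86% of all genes, and 0 lower. The smallest member estimate was 0.30, a size that 10.5% of all genes reached or passed. By TMM-normalized CPM (counts scaled to a common library total and corrected for library composition), the livers of the 2 groups did not overlap for 7 of 8 members, always with E4bp4-LKO above, which held for 8.81% of all genes. The exception was Cyp2d40.

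**Figure D1:**
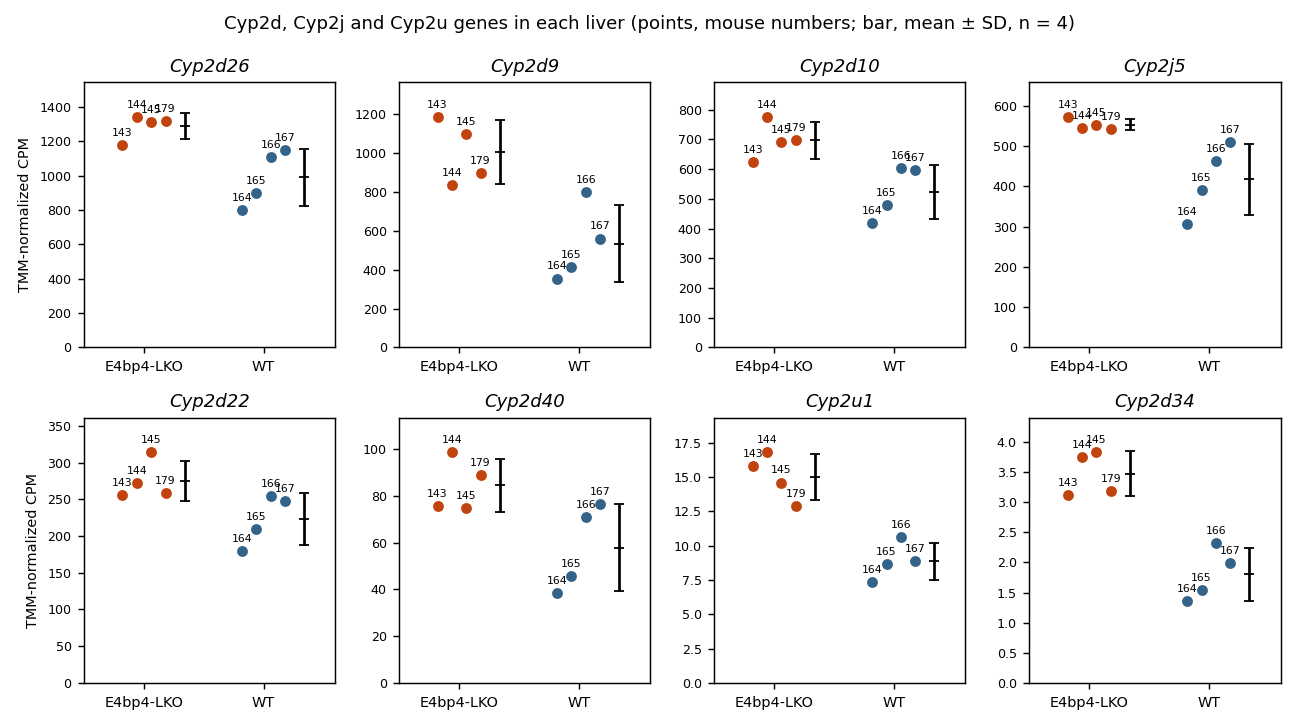
TMM-normalized CPM (vertical axis, starting at 0) of each gene in the 4 E4bp4-LKO livers (left, red) and the 4 WT livers (right, blue), with mouse numbers at the points and the mean ± SD as a bar. The lowest liver in every panel is WT 164, and the groups overlap for Cyp2d40 only.

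Among the members, most counts lay in the Cyp2d genes. The 8 Cyp2d genes listed, the 6 members with Cyp2d11 and Cyp2d12, summed to 3324, 3333, 3496 and 3264 CPM in E4bp4-LKO livers 143, 144, 145 and 179, against 1792, 2055, 2842 and 2636 CPM in WT livers 164, 165, 166 and 167. The E4bp4-LKO livers lay close together (3354 ± 99.4 CPM) and the WT livers were spread (2331 ± 490 CPM, SD, n = 4 each). As a share of all counts of a library, which does not use TMM, the subfamily took 0.307% to 0.33% in E4bp4-LKO livers and 0.208% to 0.285% in WT livers. Counted as 1 feature, it had a log2 fold change of 0.52 (SE 0.15, 95% interval 0.20 to 0.85).

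Which copy carries the counts has to be read with the likeness of the copies in view. The annotated Cyp2d transcripts of Cyp2d9 and Cyp2d10 (GENCODE M21) are 91.6% identical over their aligned bases, those of Cyp2d9 and Cyp2d34 89.3%, those of Cyp2d9 and Cyp2d40 83.5%, those of Cyp2d9 and Cyp2d26 80.7%, and those of Cyp2d9 and Cyp2d22 76.4%. Of all 50-base stretches of the Cyp2d9 transcript 29% also stand, letter for letter, in a transcript of another gene. The share was 40.5% for Cyp2d10, 24.1% for Cyp2d40, 13.7% for Cyp2d34, 10.5% for Cyp2d26 and 6.14% for Cyp2d22. It was 0.174% for Cyp2j5 and 3.14% for Cyp2u1, on annotated transcripts of 2345 and 4378 bases. The deposited lengths of these genes were 3651 and 2331 bases, so their counts rest on other transcript models. At 100 bases the share fell to 14.8% for Cyp2d10, 9.86% for Cyp2d9 and under 1% for every other member. The deposited counts of Cyp2d9, Cyp2d22, Cyp2d26, Cyp2d34 and Cyp2d40 were fractional (more than 0.001 from a whole number) in 8 of 8 libraries, which marks reads divided between sources, those of Cyp2d10 and Cyp2j5 in 7, and those of Cyp2u1 in 0. Of all entries in a library, 25.92% to 27.3% were fractional. The division of reads among Cyp2d copies is therefore uncertain for every Cyp2d value given here, and the Cyp2u1 value does not rest on such a division.

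For some copies the likeness extends into the upstream sequence. In the order of the mouse cluster on chromosome 15 the copies with counts are Cyp2d22, Cyp2d11, Cyp2d10, Cyp2d9, Cyp2d12, Cyp2d34, Cyp2d40 and Cyp2d26, among 19 genes of which 11 are pseudogenes. The 250 bases before the annotated start of Cyp2d9, Cyp2d10 and Cyp2d11 are shown because these neighbours share most of their upstream letters, while Cyp2d11 was nearly without counts and the other two were abundant. They are RefSeq sequences of GRCm38.p6, written 5′ to 3′ along the gene's own strand, at chr15:82452127-82452376 on the plus strand for Cyp2d9, chr15:82407195-82407444 on the minus strand for Cyp2d10 and chr15:82394023-82394272 on the minus strand for Cyp2d11. Capitals in Cyp2d10 (41 bases) and Cyp2d11 (31 bases) mark letters with no identical partner in the alignment to Cyp2d9, unaligned ends included.
Cyp2d9: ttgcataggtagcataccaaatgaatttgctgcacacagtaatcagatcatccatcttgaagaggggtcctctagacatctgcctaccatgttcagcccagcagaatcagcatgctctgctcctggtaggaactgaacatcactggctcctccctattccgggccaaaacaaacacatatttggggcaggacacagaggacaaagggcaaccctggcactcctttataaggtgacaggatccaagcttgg
Cyp2d10: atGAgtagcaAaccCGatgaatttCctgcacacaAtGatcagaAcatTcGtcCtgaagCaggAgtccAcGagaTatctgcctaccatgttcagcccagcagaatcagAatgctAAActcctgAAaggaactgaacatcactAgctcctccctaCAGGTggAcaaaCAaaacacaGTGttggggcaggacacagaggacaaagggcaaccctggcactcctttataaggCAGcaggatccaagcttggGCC
Cyp2d11: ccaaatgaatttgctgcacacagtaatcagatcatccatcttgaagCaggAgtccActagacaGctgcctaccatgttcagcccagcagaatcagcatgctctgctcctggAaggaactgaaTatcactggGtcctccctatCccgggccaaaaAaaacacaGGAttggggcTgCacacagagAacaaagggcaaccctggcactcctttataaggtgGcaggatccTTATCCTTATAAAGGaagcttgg
Over the aligned bases Cyp2d11 is 93.6% identical to Cyp2d9, Cyp2d10 85% and Cyp2d40 80.2%. Cyp2d26, at 64.4%, is about as unlike Cyp2d9 as the 7 windows of Cyp2j genes, at 51.6% to 64.2%. Yet Cyp2d11 held 2.21 to 10.69 expected counts per library over both groups and did not enter the test, whereas Cyp2d9 held 12263 to 32062. The letters TATAA begin 26 bases before the start in Cyp2d9 and 29 bases before it in Cyp2d10 and Cyp2d26. In Cyp2d11 they begin at 16 and at 41 bases. Cyp2d26 holds them a second time at 242 bases, and they stand farther out in Cyp2d40 and Cyp2j5, at 89 and 126 bases. Of 32851 such windows over all genes 22.8% hold TATAA on either strand.

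E4BP4 is a repressor that binds D-box elements, so these letters were looked up as well. The D-box forms TTATGTAA and TTACGTAA, searched on both strands, stand in 0.931% of all 250-base windows and in none of those of Cyp2d9, Cyp2d10, Cyp2d26, Cyp2d40 and Cyp2j5, the 5 of 8 members matched in the table. The form TTCNNNGAA, which STAT5 binds, stands in 7.02% of all windows, and CAAAGTCCA, a form bound by HNF4, in 0.384%. Neither stands in the 5 member windows. The windows reach 250 bases only, and more distant sequence was not analysed here.

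Cyp2d9 had 1187, 838, 1097 and 899 CPM in E4bp4-LKO livers 143, 144, 145 and 179, against 355, 416, 801 and 561 CPM in WT livers 164, 165, 166 and 167. The highest WT liver, 166, came close to the lowest E4bp4-LKO liver, 144, without reaching it. The means were 1005 ± 164 CPM in E4bp4-LKO and 533 ± 198 CPM in WT (SD, n = 4 each), a log2 fold change of 0.92 (SE 0.24, 95% interval 0.39 to 1.44, edgeR adjusted p = 0.0371). The call was lost without any 1 of the 4 E4bp4-LKO livers and without WT 164, 165 or 167, with adjusted p of 0.0594 to 0.098 and log2 fold changes of 0.76 to 0.99, about as large as with all livers. Without WT 166 it passed (log2 fold change 1.18).

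Cyp2d10 had 625, 776, 690 and 698 CPM in E4bp4-LKO livers, against 418, 480, 603 and 596 CPM in WT livers. The groups stood apart by a narrow gap between E4bp4-LKO 143 and WT 166. The log2 fold change was 0.41 (SE 0.13, 95% interval 0.12 to 0.70, edgeR adjusted p = 0.0675). Cyp2d26 was the most abundant member per transcript length. It had 1175, 1341, 1314 and 1315 CPM in E4bp4-LKO livers, against 799, 900, 1107 and 1149 CPM in WT livers, with the lowest E4bp4-LKO liver, 143, just above WT 167. Its log2 fold change was 0.38 (SE 0.13, 95% interval 0.10 to 0.66, edgeR adjusted p = 0.081). Both genes passed with DESeq2 and without WT 167, and in no other fit tried.

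Cyp2d22, often treated as the mouse gene closest in use to human CYP2D6, had 256, 272, 314 and 258 CPM in E4bp4-LKO livers, against 179, 210, 255 and 248 CPM in WT livers. The groups met almost exactly, at 256 CPM in E4bp4-LKO 143 and 255 CPM in WT 166. The log2 fold change was 0.30 (SE 0.12, 95% interval 0.04 to 0.57, edgeR adjusted p = 0.129), and it passed in none of the 19 alternative fits either. Cyp2d40 had 75.9, 98.7, 75 and 88.9 CPM in E4bp4-LKO livers, against 38.5, 45.6, 71 and 76.5 CPM in WT livers. Here WT 167 lay above 2 of the E4bp4-LKO livers, 143 and 145. The log2 fold change was 0.55 (SE 0.21, 95% interval 0.07 to 1.03, edgeR adjusted p = 0.127).

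Cyp2d34 was the rarest member. It had 3.12, 3.76, 3.83 and 3.18 CPM in E4bp4-LKO livers, against 1.36, 1.54, 2.32 and 1.99 CPM in WT livers, and the groups did not overlap. The log2 fold change was 0.95 (SE 0.20, 95% interval 0.51 to 1.38, edgeR adjusted p = 0.0154). The call was lost without E4bp4-LKO 144 (log2 fold change 0.91) and without WT 165 (0.89). These values rest on 71.2 to 114 expected counts in E4bp4-LKO libraries and 47.1 to 66.2 in WT libraries. Set against the Cyp2d9 count of the same library, the Cyp2d34 count came to 0.353 ± 0.0761% in E4bp4-LKO livers and 0.35 ± 0.0417% in WT livers (SD, n = 4 each), a ratio looked at after the values were seen and not tested. By liver the ratio ran from 0.262% (143) to 0.449% (144) in E4bp4-LKO and from 0.29% (166) to 0.384% (164) in WT. Cyp2d9 was itself called higher in E4bp4-LKO livers, and the picture depends on the gene set below the line. As a share of all summed Cyp2d counts, Cyp2d34 had 0.0937% to 0.113% in E4bp4-LKO and 0.0751% to 0.0817% in WT, without overlap. The 50-base stretches that Cyp2d34 shares stood most often in Cyp2d11 (87 stretches) and Cyp2d10 (85). Whether the Cyp2d34 counts stem from Cyp2d34 transcripts or from reads of a more abundant copy was not tested.

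Cyp2j5, an arachidonic acid epoxygenase abundant in mouse liver and kidney, had 572, 545, 552 and 542 CPM in E4bp4-LKO livers, against 307, 391, 462 and 510 CPM in WT livers. The E4bp4-LKO livers were nearly equal to each other (553 ± 13.2 CPM), and all 4 lay above the WT livers (418 ± 88.4 CPM, SD, n = 4 each). The log2 fold change was 0.40 (SE 0.14, 95% interval 0.10 to 0.71, edgeR adjusted p = 0.0853), and it passed with DESeq2 and without WT 167.

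Cyp2u1 had 15.8, 16.8, 14.6 and 12.9 CPM in E4bp4-LKO livers, against 7.34, 8.67, 10.6 and 8.85 CPM in WT livers. All 4 E4bp4-LKO livers lay above all 4 WT livers, with a clear gap. The means were 15 ± 1.69 CPM in E4bp4-LKO and 8.86 ± 1.32 CPM in WT (SD, n = 4 each), a log2 fold change of 0.77 (SE 0.12, 95% interval 0.49 to 1.04, edgeR adjusted p = 0.00577). Its counts were whole numbers, 289 to 511 in E4bp4-LKO libraries and 253 to 301 in WT libraries. It was the member with the smallest adjusted p, and it passed in all 20 alternative fits, with log2 fold changes of 0.51 to 0.87.

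**Figure D2:**
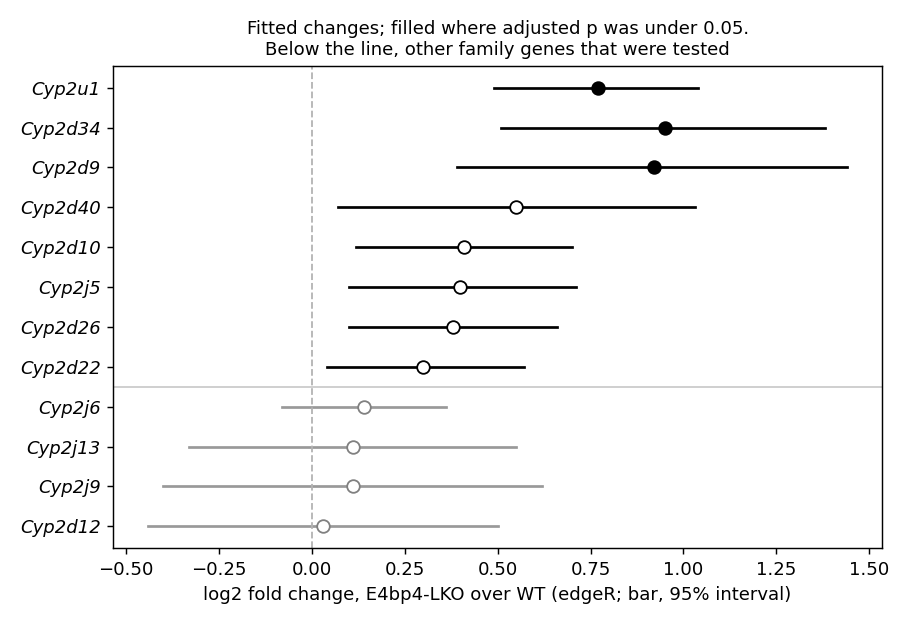
Fitted log2 fold change of E4bp4-LKO over WT (horizontal axis, edgeR) for the 8 members (upper rows, black) and the 4 other Cyp2d and Cyp2j genes that were tested (lower rows, grey), with 95% intervals as bars. Filled circles mark an adjusted p under 0.05, reached by Cyp2u1 (0.77), Cyp2d34 (0.95) and Cyp2d9 (0.92), and the intervals of the 4 grey genes include 0.

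By FPKM, the deposited level per transcript length, the order of the members was the same in both groups. Cyp2d26 averaged 742 FPKM in E4bp4-LKO livers and 631 FPKM in WT livers. Cyp2d9 followed with 579 FPKM in E4bp4-LKO and 336 FPKM in WT, and Cyp2d10 with 393 FPKM in E4bp4-LKO and 327 FPKM in WT. Neighbours in this order overlapped in 2 cases only. Cyp2d26 and Cyp2d9 overlapped in E4bp4-LKO livers (689 to 768 and 478 to 694 FPKM), and Cyp2d9 and Cyp2d10 in WT livers (250 to 487 and 289 to 360 FPKM). Next came Cyp2j5 (142 FPKM in E4bp4-LKO, 118 FPKM in WT), Cyp2d22 (92.9 FPKM in E4bp4-LKO, 83.4 FPKM in WT) and Cyp2d40 (71.9 FPKM in E4bp4-LKO, 54 FPKM in WT). Cyp2u1 (6.09 FPKM in E4bp4-LKO, 3.98 FPKM in WT) and Cyp2d34 (2.03 FPKM in E4bp4-LKO, 1.17 FPKM in WT) stood far below. The level of Cyp2d26 was 122 times that of Cyp2u1 in E4bp4-LKO livers and 159 times in WT livers.

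Scaling by library totals in place of TMM moved the members' estimates about as far as the median of all genes. The change alters 1 factor per library for all genes alike. A shift close to that of the median therefore follows from the method and is no test of the members. TMM factors were 0.9405 to 0.963 in E4bp4-LKO libraries and 0.9843 to 1.159 in WT libraries, highest in WT 164 (1.159) and WT 165 (1.086). Scaling by library totals alone moved the median estimate of all genes to -0.148, against 0.009 with TMM, and the genes called split 14.9% higher and 85.1% lower, against 40.3% and 59.7% with TMM. Measured from that median, the members moved little: 0.93 for Cyp2d9 (0.91 with TMM), 0.95 for Cyp2d34 (0.94), 0.76 for Cyp2u1 (0.76), 0.41 for Cyp2j5 (0.40) and 0.30 for Cyp2d22 (0.29), and the same 3 members were called higher, against 2.2% of all genes. By deposited FPKM, which carries no TMM, the groups did not overlap for 3 of 8 members, Cyp2d34, Cyp2j5 and Cyp2u1, with E4bp4-LKO above, which held for 2.92% of all genes.

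The same WT livers, 164 and 165, were low for all members, whereas the order of WT 166 and 167 varied between them. WT 164 was the lowest of the 8 livers for 8 of 8 members and WT 165 the second lowest for 8 of 8, by CPM. The 8 members summed to 3909, 3891, 4060 and 3816 CPM in E4bp4-LKO livers, against 2104, 2453, 3312 and 3152 CPM in WT livers. In WT 164 the summed hepatocyte markers were at 61708 CPM, the lowest of the 8 livers, and the summed stellate cell and myofibroblast markers at 1479 CPM, the highest. In a bulk tissue, fewer cells of a type and less RNA per cell cannot be told apart. Because WT 164 and WT 165 were the lowest livers for every member, leaving out both was bound to lower the estimates. Only the size of the drop is a result. All 8 estimates fell: to 0.57 for Cyp2d9 (95% interval 0.15 to 0.99, edgeR adjusted p = 0.146), 0.69 for Cyp2d34 (0.26 to 1.13, adjusted p = 0.0874) and 0.64 for Cyp2u1 (0.34 to 0.94, adjusted p = 0.0395). The other 5 then lay between 0.13 and 0.22, with Cyp2u1 as the only member called. With the same libraries left out, 1.36% of all genes were called higher.

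**Figure D3:**
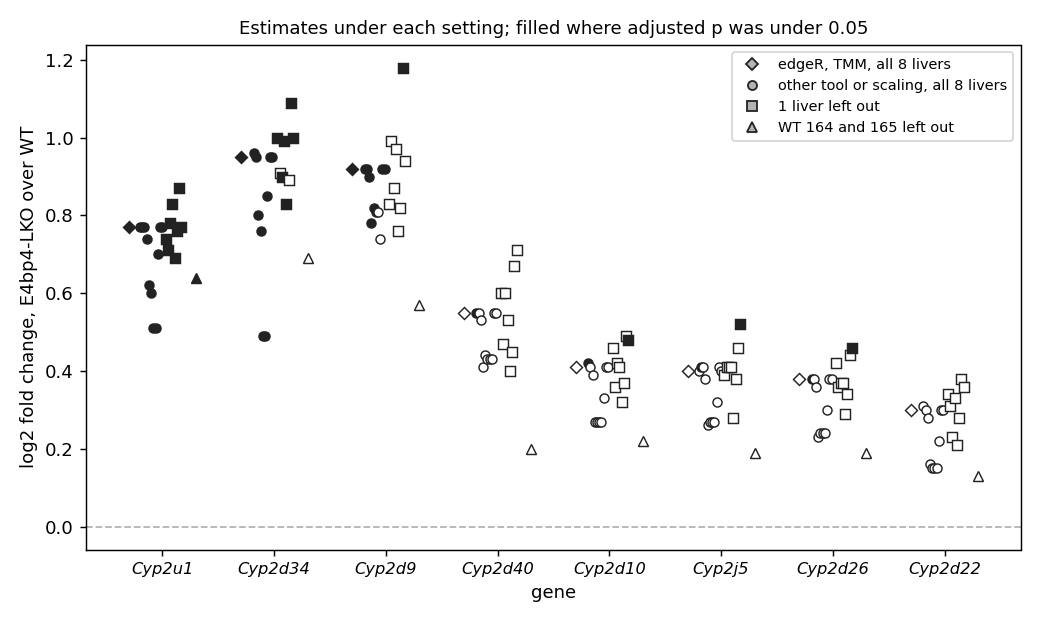
Log2 fold change of E4bp4-LKO over WT (vertical axis) for each member under the edgeR fit with all livers (diamond), other tools, filters or scalings (circles), each liver left out in turn (squares), and WT 164 and 165 left out (triangle). Filled symbols mark an adjusted p under 0.05. All symbols lie above 0, Cyp2u1 is filled throughout, and the triangle is the lowest symbol for 6 of the 8 genes. The triangle leaves out the WT livers that were lowest by CPM for every member, so a low place was bound to follow.

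A share within the Cyp2d subfamily does not depend on library scaling. Cyp2d9 took 35.7%, 25.2%, 31.4% and 27.5% of the summed Cyp2d counts in E4bp4-LKO livers, against 19.8%, 20.2%, 28.2% and 21.3% in WT livers. WT 166, at 28.2%, lay above E4bp4-LKO 144 and 179. The mean was 29.9 ± 4.62% in E4bp4-LKO and 22.4 ± 3.93% in WT, a difference of 7.58 percentage points (exact two-sided permutation test, p = 0.0857, adjusted p = 0.129 over the 6 copies compared). Cyp2d26 took 38.4 ± 2.38% in E4bp4-LKO and 42.7 ± 2.55% in WT, a difference of -4.37 points (exact permutation p = 0.0857, adjusted p = 0.129), and Cyp2d22 8.18 ± 0.56% in E4bp4-LKO and 9.64 ± 0.568% in WT, a difference of -1.46 points (exact permutation p = 0.0571, adjusted p = 0.129). Cyp2d10 took 20.8% in E4bp4-LKO and 22.6% in WT (exact permutation adjusted p = 0.24), and Cyp2d40 2.53% in E4bp4-LKO and 2.44% in WT (exact permutation adjusted p = 0.771). Cyp2d34 took 0.0937% to 0.113% in E4bp4-LKO and 0.0751% to 0.0817% in WT, without overlap, at the smallest p that 70 arrangements allow (exact permutation p = 0.0286, adjusted p = 0.129). With 0.0286 as the smallest p and 6 copies adjusted together, a single fully separated copy such as Cyp2d34 could not pass on its own. No copy's share passed after adjustment, and at this number of livers that does not show that the composition was equal.

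**Figure D4:**
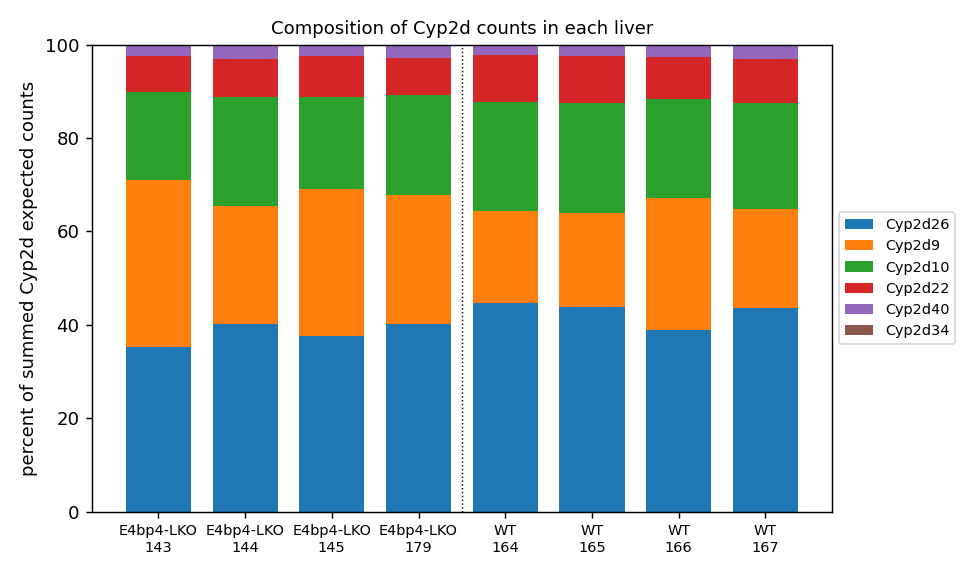
Percent of the summed Cyp2d expected counts (vertical axis, 0 to 100) held by each copy, 1 bar per liver, E4bp4-LKO on the left of the dotted line and WT on the right. The orange Cyp2d9 block spans 25.2% to 35.7% in E4bp4-LKO livers and 19.8% to 28.2% in WT livers, and the Cyp2d34 block, 0.0751% to 0.113%, is too thin to see.

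The remaining genes of the same subfamilies gave no call. Of 14 further Cyp2d and Cyp2j genes 7 were listed and 4 had counts enough to test. edgeR called 0 of these, 0 had an unadjusted p under 0.05, DESeq2 and limma also called 0, and the groups overlapped for all 4. Cyp2j6, the most abundant of them, had 103, 87.8, 95.1 and 84.2 CPM in E4bp4-LKO livers, against 68.9, 85.1, 91.2 and 90.7 CPM in WT livers (log2 fold change 0.14, SE 0.10, 95% interval -0.08 to 0.36, edgeR adjusted p = 0.405). Estimates were 0.11 for Cyp2j13 (95% interval -0.33 to 0.55), 0.11 for Cyp2j9 (-0.40 to 0.62) and 0.03 for Cyp2d12 (-0.44 to 0.50). All 4 turned below 0 with library totals in place of TMM, where the median of all genes was -0.148, and all 4 stayed above that median. Cyp2j8 held 1 to 3.01 counts in every library, and Cyp2j11 a single count in 3 libraries.

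Other single-copy members of the CYP2 family were set beside them. Of 5 such genes tested 1 rose, Cyp2f2, a P450 of periportal hepatocytes, with 1624, 1612, 1569 and 1736 CPM in E4bp4-LKO livers, against 715, 1100, 1127 and 1145 CPM in WT livers (log2 fold change 0.68, SE 0.15, edgeR adjusted p = 0.0181). The groups were far apart, and the call was lost without E4bp4-LKO 144 (0.69) or 179 (0.65). Cyp2e1, the ethanol-oxidising P450 of pericentral hepatocytes, averaged 8450 ± 824 CPM in E4bp4-LKO and 5448 ± 2044 CPM in WT (SD, n = 4 each, log2 fold change 0.63, edgeR adjusted p = 0.117), with WT 164 and 165 at 3137 and 4324 CPM. Cyp2g1 (0.99, adjusted p = 0.0879) and Cyp2s1 (-0.79, adjusted p = 0.219) did not pass, and DESeq2 called 2 of the list higher, Cyp2f2 and Cyp2e1.

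In edgeR, none of the genes for electron supply or haem metabolism passed the test. Of 7 electron donors and partners edgeR called 0, with 1, Cyb5r1, at an unadjusted p under 0.05. DESeq2 and voom also called 0, and limma on log2(FPKM + 1) called Cyb5r1 lower. Por, the reductase itself, had 657, 984, 956 and 911 CPM in E4bp4-LKO livers, against 421, 495, 764 and 914 CPM in WT livers, with overlapping groups (log2 fold change 0.44, 95% interval -0.09 to 0.97, adjusted p = 0.264). The membrane haem-binding partners Pgrmc1 and Pgrmc2 stood at 0.18 (adjusted p = 0.331) and 0.19 (adjusted p = 0.216) on the log2 scale, and the cytochrome b5 reductase gene Cyb5r1 at -0.33 (adjusted p = 0.0759). Of 12 genes of haem synthesis and breakdown edgeR called 0, with 1, Urod, at an unadjusted p under 0.05 and a median estimate of 0.06. DESeq2 and voom called 0, and limma on log2(FPKM + 1) called 1 lower, Blvra, named after its value was seen. The haem synthesis genes Urod and Alad stood at 0.18 and 0.19 (adjusted p = 0.137 and 0.193). Among 16 genes that release arachidonic acid or act on its products, 11 were tested and 1 rose, Acsl1, which activates long-chain fatty acids (log2 fold change 0.93, SE 0.22, edgeR adjusted p = 0.0275). Ephx2, which hydrolyses the epoxides that Cyp2j enzymes make, had 888, 821, 856 and 1001 CPM in E4bp4-LKO livers, against 540, 691, 774 and 756 CPM in WT livers (0.37, adjusted p = 0.0841). Pla2g6, a phospholipase, stood at 0.49 (adjusted p = 0.0594) and the microsomal epoxide hydrolase Ephx1 at -0.30 (adjusted p = 0.166). DESeq2 called 4 of this list higher, Acsl1, Ephx2, Pla2g6 and Alox15 (the last named after its value was seen), and limma on log2(FPKM + 1) called Acsl1 higher and Ephx1 lower. The edgeR call of Acsl1 was lost without E4bp4-LKO 144, 145 or 179 and without WT 165, where it lay between 0.79 and 1.00.

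Among 25 regulators of hepatic P450 genes 4 rose and 2 fell. Nfil3, which encodes E4BP4, had 3.33, 6.23, 6.14 and 3.35 CPM in E4bp4-LKO livers, against 11.4, 8.79, 12.1 and 16.5 CPM in WT livers, so the labelled groups differed in the targeted gene without overlap (log2 fold change -1.35, SE 0.25, edgeR adjusted p = 0.0122). The oestrogen receptor gene Esr1 rose (1.01, adjusted p = 0.0146), as did the growth hormone receptor gene Ghr (0.44, adjusted p = 0.0285), and the aryl hydrocarbon receptor gene Ahr fell by 0.47 (log2 fold change -0.47, adjusted p = 0.0202). The call of Ghr was lost without E4bp4-LKO 144, 145 or 179 or WT 165, and that of Ahr without E4bp4-LKO 144 or 145. Without both WT 164 and WT 165, the calls of Esr1, Ghr and Ahr were lost and that of Nfil3 was kept. The other 2 that rose, named after their values were seen, were Onecut1 (1.63, adjusted p = 0.0366) and the D-box activator Tef (0.34, adjusted p = 0.0472). DESeq2 called 8 higher and 2 lower.

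Cyp2d9 is known as a male-predominant gene, so lists of sex-biased liver genes were counted. Of 12 male-biased genes 9 rose and 0 fell, with a median log2 fold change of 1.95, and of 13 tested female-biased genes 0 rose and 5 fell, with a median of -0.86. Estimates were above 0 for 11 male-biased genes. Gene by gene, CPM did not overlap between the groups for 11 of the 12 male-biased genes and 5 of the 13 female-biased genes tested. Over all genes tested this held for 18.5%, in either direction. The summed male-biased genes, in which the most abundant genes weigh most, overlapped, with 6046 to 10365 CPM in E4bp4-LKO livers and 5985 to 9558 CPM in WT livers. The summed female-biased genes, with 95.2 to 148 CPM in E4bp4-LKO and 189 to 318 CPM in WT, did not. Hsd3b5, a steroid dehydrogenase, was at 14.3 to 23.6 CPM in E4bp4-LKO livers and 0.0578 to 0.245 CPM in WT livers. The transporter gene Slco1a1 was at 210 to 362 CPM in E4bp4-LKO and 8.04 to 32.4 CPM in WT, and the urinary protein gene Mup7 at 510 to 1933 CPM in E4bp4-LKO and 10.5 to 38.9 CPM in WT. Nudt7 stood at 1.12 on the log2 scale (adjusted p = 0.000201). Of the female-biased genes, Abcd2 fell (-1.02, adjusted p = 0.00102), as did Cyp2b13, Cyp2a4 and Cyp17a1 (-4.78, -3.63 and -1.27). The call of Cyp17a1 was lost without E4bp4-LKO 144, 145 or 179 or WT 164 or 165, and without both of these WT livers those of Mup7 and Cyp2a4 were lost as well. The estimate of Cyp2d9, 0.92, lay below the median of the male-biased list.

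Lists of hepatocyte position in the lobule and of cell types were counted in the same fit. Of 10 pericentral genes 5 rose and 0 fell (median log2 fold change 0.52), among them Tbx3 (0.92), Axin2 (0.84), Lgr5 (0.83) and Rgn (0.46). The calls of Tbx3 and Axin2 held with each liver left out, that of Lgr5 was lost without E4bp4-LKO 144 or 179 or WT 164, 165 or 166, and that of Rgn without any 1 E4bp4-LKO liver or WT 164 or 165. Of 10 periportal genes 1 rose, Cyp2f2, and 1 fell, Aldh1b1 (-0.59), with a median of -0.01, while Hal (0.84, adjusted p = 0.0503) and Hsd17b13 (-0.46, adjusted p = 0.0617) did not pass in edgeR. DESeq2 and voom called both, which made 2 higher and 2 lower. Summed hepatocyte markers spanned 77224 to 95224 CPM in E4bp4-LKO and 61708 to 78659 CPM in WT, with 1 of 9 called, Serpina1a, higher (3 higher and 1 lower by DESeq2). Stellate cell and myofibroblast markers spanned 444 to 630 CPM in E4bp4-LKO and 753 to 1479 CPM in WT, with 4 of 8 called lower. Macrophage markers spanned 372 to 521 CPM in E4bp4-LKO and 531 to 647 CPM in WT, with 4 of 6 called lower, and cholangiocyte markers 8.35 to 12.8 CPM in E4bp4-LKO and 12.7 to 34.5 CPM in WT, with 0 of 4 called in edgeR, 4 of 4 lower at an unadjusted p under 0.05, and 3 of 5 called lower by DESeq2. Endothelial markers (161 to 233 CPM in E4bp4-LKO, 155 to 186 CPM in WT), lymphocyte markers (4.32 to 6.65 CPM in E4bp4-LKO, 4.69 to 6.74 CPM in WT) and neutrophil markers (1.4 to 6.26 CPM in E4bp4-LKO, 1.54 to 6.01 CPM in WT) overlapped between the groups. The neutrophil marker Ly6g had no row in any file, and transferrin, entered under the symbol Tf, matched none. The part of these lists in the differences of the members was not tested.

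Genes with the profile most like that of a member over the 8 livers were found by the root mean square difference of log2 CPM, each gene centred on its own mean. The candidates were 10604 genes with a mean of at least 1 FPKM. The 8 members and predicted models named Gm or Rik were left out, so closer profiles among those are not listed. For Cyp2d9 the closest was Rarres1, at 0.125 log2 units, with 200, 127, 153 and 128 CPM in E4bp4-LKO livers, against 53.3, 68.1, 112 and 100 CPM in WT livers. Like Cyp2d9, it was highest in E4bp4-LKO 143. Inmt (0.213) and Slc10a1, the bile acid uptake transporter gene (0.222), followed. For Cyp2j5 the closest were Hibadh (0.040), Gcdh (0.043) and Ces1e (0.047), and for Cyp2u1 Tpst1 (0.144), Dmgdh (0.145) and Lonrf1 (0.149). A member with a narrow range of values finds closer matches by this measure: Cyp2j5 spanned 0.90 log2 units over the 8 livers, Cyp2u1 1.19 and Cyp2d9 1.74.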

How the data were processed

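Per the labels, mRNA of whole liver was enriched and reverse transcribed with random primers, and 1 library was made per mouse. Per the submitters' processing notes, HISAT2 served in the processing. The sources used here do not name its version, the quantifier, the strand setting, the genome build or the annotation. The authors deposited, per gene, expected counts (estimated, without normalization) and FPKM, normalized by the authors for transcript length and depth. Library totals were 23805540 to 32290265 expected counts, and intervals on these cover the spread between 4 mice per group. Nothing in the sources says whether mice were littermates, so p-values measure the spread between these samples.

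Entries that lacked a symbol were merged into their gene by RefSeq accession (26), and 4 unnamed entries, 0.0367% to 0.0451% of counts, were left out. Genes missing from a file were set to 0. Expected counts were rounded and tested in R 4.3.3 with edgeR 4.0.16 (filterByExpr with minimum count 10 and minimum total 15, TMM, robust quasi-likelihood test, two-sided, Benjamini-Hochberg over all genes, threshold 0.05), and the test was tried on simulated data. The SE is the absolute log2 fold change over the square root of F. Alternatives were DESeq2 1.42.0, its size factors in edgeR, library totals, no filter, a filter at 5 CPM in 4 libraries, unrounded counts, limma 3.58.1 (voom with quality weights; trend on log2(FPKM + 1) and log2(FPKM + 0.1) for genes at 1 FPKM, and unfiltered), Cyp2d genes summed, and libraries left out. Shares used unrounded counts and scipy 1.17.1. Sequences were aligned with Biopython 1.88. Named genes are the 8 members, the other detected Cyp2d and Cyp2j genes, Nfil3, up to 4 genes of smallest p from each other list (2 of haem metabolism), and 3 genes of most like profile for Cyp2d9, Cyp2j5 and Cyp2u1. The members and all lists were chosen with earlier results of these data known.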

Additional observations from a re-analysis of the deposited data

Results flagged for a closer look

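A liver was looked for that stood far from the other 3 of its group, by Dixon's 95% critical value. Of 126 groups examined 8 met it, and chance gives about 1 in 20. Among the members it was Cyp2d26 in E4bp4-LKO 143, at 1175 CPM where the other E4bp4-LKO livers had 1314 to 1341 CPM, and the share of Cyp2d34 in WT 166, at 0.0817% of Cyp2d counts where the other WT livers had 0.0751% to 0.0759%. Cyp2f2 was at 715 CPM in WT 164 and at 1100 to 1145 CPM in the other WT livers. Pgrmc1 was at 1177 CPM in E4bp4-LKO 145 (others 1264 to 1279 CPM), and Hibadh, close to Cyp2j5 in profile, at 370 CPM in the same liver (others 359 to 360 CPM). In E4bp4-LKO 144, Lgr5 was at 14.9 CPM (others 8.52 to 8.85 CPM) and Lonrf1 at 19.1 CPM (others 15.3 to 15.8 CPM). Cyp2j11 was at 0.0351 CPM in WT 166 from a single count, with 0 in the other WT livers.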

How the results depend on the processing

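No paired analysis was possible because the mouse numbers of the 2 groups differ and the labels pair no animals. Of the 24 named genes outside the members that edgeR called, 9 kept the call in every fit with livers left out and 15 lost it in at least 1, with no change of sign. No member changed sign: of 153 alternative fits of single members 133 kept their side of the threshold, 13 lost the call and 7 gained it. The number of members called, 3, was 7 with DESeq2 and 1 without WT 164 and 165, and spanned 1 to 5 with single livers left out (1 without E4bp4-LKO 144 or WT 165, 5 without WT 167). The Cyp2d rows summed to 1 feature give no count of members. Of all genes tested, 4.38% were called higher when every liver was kept. Omitting E4bp4-LKO 144 made this share 1.75%, omitting WT 165 made it 1.96%, and omitting WT 167 made it 4.54%. Over all genes, 1439 calls became 2233 with DESeq2, 387 without WT 164 and 165, and 506 to 1540 with single livers left out. Calls split 14.9% higher and 85.1% lower with library totals, and 15.5% higher and 84.5% lower with limma on log2(FPKM + 1). Cyp2d9 did not pass with voom weights or unfiltered FPKM. Cyp2d12 turned to -0.12 with library totals, FPKM with 0.1 added or without E4bp4-LKO 144, -0.08 on log2(FPKM + 1) with or without filter, -0.05 with voom, -0.07 without WT 164, -0.04 without WT 165 and -0.21 without both, with a range of -0.12 to 0.18 over single livers left out. Cyp2j13 turned to -0.04 (library totals) and -0.01 (unfiltered FPKM), Cyp2j6 to -0.01 (library totals and each FPKM fit), and Cyp2j9 to -0.06 (library totals), -0.03 (each FPKM fit) and -0.04 (without WT 167, range -0.04 to 0.29 over single livers left out). The difference in share of Cyp2d40 turned to -0.058 points without E4bp4-LKO 144, -0.0113 without WT 164 and -0.172 without both WT 164 and 165 (range -0.058 to 0.239 over single livers left out). The median estimate of all genes was itself -0.148 with library totals, -0.111 on log2(FPKM + 1), -0.128 with 0.1 added and -0.067 on unfiltered FPKM. The causes were not tested. With 4 livers a group, permutation p could not go below 0.0286, and a left-out liver raises that limit above it.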
